A study of Mus musculus with 2 samples.

Results

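Round spermatids of the mouse testis that carry the RNAs of the forming acrosome, here called the acrosome gene stage, are described in wild-type (WT) and Alkbh5-/- (KO) mice. The cells were chosen by a score, not by a sort. Barcodes with fewer than 2 detected genes of a panel of 10 markers of Leydig, Sertoli, macrophage, spermatogonial and early meiotic cells were kept, and each kept barcode was scored for 10 sets of 3 genes that follow one another along the germ cell series. A barcode belongs to the stage when the set Acrv1, Spaca1 and Lyzl1 has the highest of its 10 scores. By this rule 1275 of the 12768 barcodes belong to the stage, 732 of 5756 in the WT library and 543 of 7012 in the KO library. The 30 genes of the sets were used to choose the cells, so their values in these cells are a description and not a finding.

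The study compared testis cells of 12-week-old C57BL/6 mice of both genotypes by single-cell RNA sequencing on a microfluidic chip, with unique molecular identifiers (UMIs) that count molecules. Alkbh5 encodes an eraser of N6-methyladenosine, a methyl mark on mRNA, and the KO mice were homozygous offspring of heterozygous parents, with no cell type restriction named. There is 1 library per genotype, and the study's text differs on how many animals stand behind each, so a library may be a pool. No test between genotypes is therefore possible: each interval given here is an exact 95% interval for counting error only, and a difference between genotypes cannot be told apart from a difference between these 2 libraries.

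Round spermatids are haploid cells that have finished meiosis and have not yet begun to condense their nucleus. During this time the Golgi apparatus delivers enzymes and membrane proteins to the acrosome, the vesicle over the nucleus that later opens at the egg coat. The sex chromosomes are silenced in meiosis and stay largely repressed after it, yet many X- and Y-linked genes, often in several copies, are transcribed again in round spermatids, and spermatids that carry an X or a Y share RNA through cytoplasmic bridges.

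The stage made up 12.7% (11.9 to 13.6) of all WT barcodes and 7.74% (7.13 to 8.39) of all KO barcodes, a ratio of 0.609 (0.544 to 0.681). The marker panel left out 365 WT barcodes and 2734 KO barcodes. Of the barcodes that were kept, the stage made up 13.6% (12.7 to 14.5) in WT and 12.7% (11.7 to 13.7) in KO, and the ratio of these shares was 0.935 (0.835 to 1.05). The lower share in KO thus stands in the count over all barcodes and not in the count over kept ones, where the interval of the ratio includes 1. The earlier neighbour, the early round spermatids, took 13.5% of kept barcodes in WT and 16.3% in KO, and the later neighbour, a stage named for Cd46, took 4.54% and 7.25%.

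Depth was similar in both genotypes. The members held about 12189600 UMIs in WT and 8103900 in KO. A median WT cell held 13278.5 UMIs and 3771.5 genes, and a median KO cell held 12163 UMIs and 3664 genes. After each cell was thinned to 6746 UMIs, which left out 56 WT and 72 KO cells, the medians were 2712 and 2718 genes, which differ less than the unthinned medians. A doublet caller marked 40 WT and 25 KO members. The libraries share 45 barcode sequences, which hold 4 WT and 5 KO members.

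The stage is a range cut from a continuous series. Of the members, 175 in WT (23.9%) and 149 in KO (27.4%) lay within 0.25 of the next score. Nearest the limit, a WT member had a score of 1.66 and led its next set by 0.00141, and a WT cell just outside had 1.55 for the acrosome set and trailed by 0.00044. The second highest set was that of the early round spermatids in 581 WT and 455 KO members and that of the Cd46 stage in 108 and 51. The difference of the later minus the earlier neighbour's score, a measure of position within the stage, had a median of -1.18 in WT and -1.26 in KO, with wide overlap between the quartiles (-1.54 to -0.48 and -1.62 to -0.67).

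The genes that define the stage were at near equal levels in both genotypes. Cells of both libraries were chosen by high values of these genes, so this is a description and not a finding. Acrv1 (chr9, GRCm38, GENCODE vM21), which encodes the acrosomal vesicle protein SP-10, had a level of 990 CPM in both genotypes, where CPM is the UMIs of a gene per 1000000 UMIs of the members. Spaca1 (chr4), an acrosome membrane protein needed for a normal sperm head, had 692 and 682 CPM. Lyzl1, a lysozyme-like gene, had 1025 and 1055 CPM. The median cell held 14 Acrv1, 10 Spaca1 and 14 Lyzl1 UMIs in WT and 12, 8 and 13 in KO, and no member lacked all 3 genes.

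**Figure D1:**
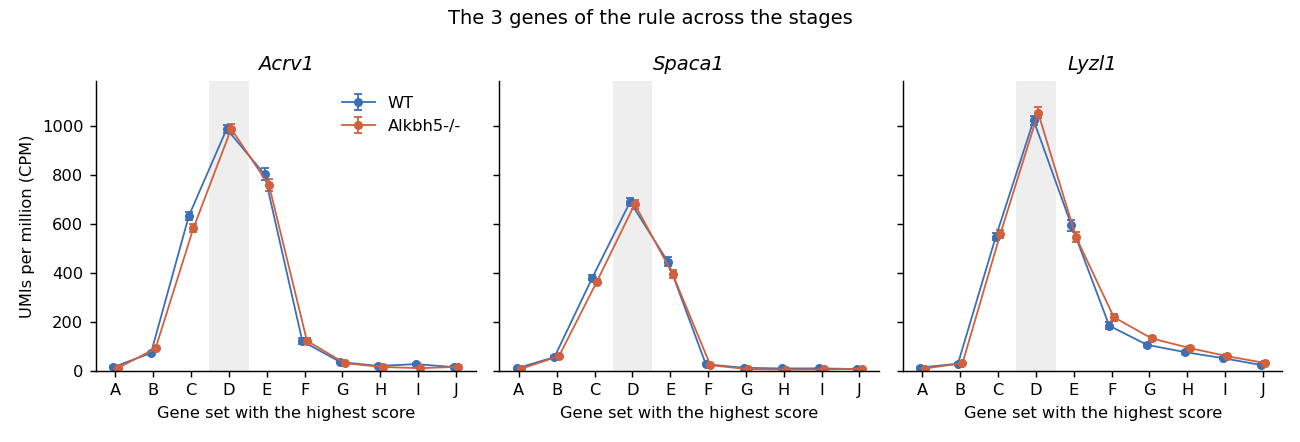
CPM of Acrv1, Spaca1 and Lyzl1 in the 10 stages, A (the Piwil1 set) to J (the Spem1 set), with 1 line per library; bars are exact 95% Poisson intervals and the grey band marks the acrosome gene stage, D. All 3 genes are highest in D by the rule, and the WT and KO lines lie close together there.

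The targeted gene checks the labels. Alkbh5 (chr11:60536381-60558512, plus strand) had 42 UMIs in the WT members, 3.45 CPM, and 0 in the KO members, where a floor of 3 UMIs is 0.37 CPM. At that floor the log2 ratio was -3.22, and the upper bound of its exact 95% interval was -2.86. Whether the reads counted lie in the deleted part of the gene is not given in the sources used here. Some other genes of the rule differed more between the genotypes than Acrv1, Spaca1 and Lyzl1 did. BC061237, of the early round spermatid set, had 420 CPM in WT and 778 in KO. Of the 15 genes of the 5 latest sets, all but Cst13, Prss58 and Gm136 had a log2 ratio below 0. Every gene of the Tnp2, Klk1b8 and Spem1 sets did, from -1.11 for Klk1b8 to -0.34 for Spem1. Of the genes below 0, Fam71b, Prss51 and Tmem269 had an interval that includes 0. Tnp2, which replaces histones before protamine, had 647 CPM in WT and 430 in KO, and Klk1b8, a kallikrein of elongating spermatids, 35.5 and 16.4. Cst13 had 158 and 171 CPM, and Prss58 24.9 and 25.7.

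Gene by gene, KO was compared with WT over the summed UMIs of the members. A gene is called past the fold when 25% or more of the WT or of the KO cells held a UMI of it, when its WT and KO sums came to 100 UMIs or more, and when the ratio was at least 2 in either direction (log2 of 1) with an interval on 1 side of 0. Of 5490 genes tested, 154 were past the fold higher in KO (2.81%) and 60 lower (1.09%), and the median log2 ratio over all of them was -0.02. The higher genes kept their direction in the neighbouring stages: 147 of the 154 had an interval above 0 in the early round spermatids and 145 in the Cd46 stage. Of the 60 lower genes, 54 and 56 had an interval below 0 there. Of all autosomal genes tested in the early round spermatids, 1284 of 5160 had an interval above 0 and 1441 below. In the Cd46 stage 871 of 5140 were above and 1620 below. Of the X-linked genes tested, 151 of 161 and 203 of 212 had an interval above 0 in these 2 stages. These stages come from the same libraries and are no replicates.

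The higher genes lay to a large part on the sex chromosomes. Of 213 X-linked genes tested, 73 were past the fold higher in KO (34.3%, beside 2.81% over all genes) and 0 were lower. In all, 209 of the 213 had a ratio above 0, 203 had an interval above 0, and the median log2 ratio was 0.84. Of 26 Y-linked genes, 12 were past the fold higher (46.2%) with a median of 0.98. A gene could pass the 25% limit through the cells of 1 genotype alone, which favours genes higher in that genotype. Sms on X (7.51% of WT and 27.6% of KO cells) and Gm20737 on Y (14.8% and 28.4%) passed it in KO only. How many of the calls did so was not counted. Of 5151 autosomal genes, 58 were higher (1.13%) and 59 lower, with a median of -0.03, and the medians of single autosomes ran from -0.08 to 0.03. The comparison is 1 library against 1, so it describes these libraries; the chromosomes were looked at after the values had been seen.

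**Figure D2:**
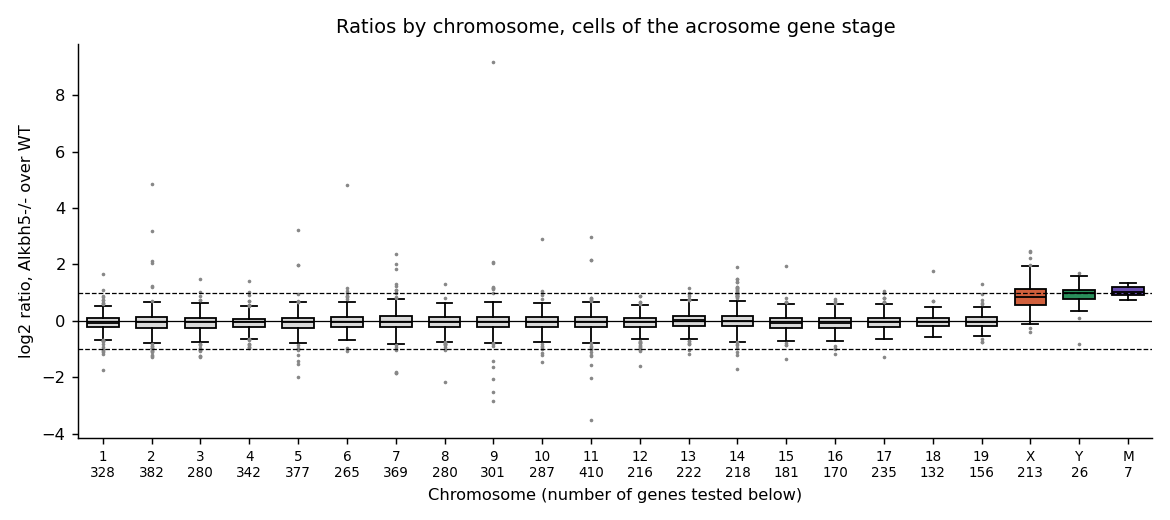
Log2 ratio of KO over WT for each gene tested, by chromosome, in cells of the acrosome gene stage; boxes give quartiles and the median, whiskers reach 1.5 times the quartile range, points are single genes beyond them, and dashed lines mark a ratio of 2 in either direction. The X (median 0.84, 213 genes) and Y (0.98, 26 genes) boxes sit above 0, as does that of the 7 mitochondrially encoded genes, while the autosomes centre near 0.

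Summed over genes, X-linked UMIs made up 1.94% of the UMIs of WT members and 3.44% of those of KO members, and the ratio was 1.77 (1.76 to 1.78). The Y-linked share was 0.151% and 0.249%, a ratio of 1.65 (1.62 to 1.69). X-linked RNA was thus higher as a whole, and not for a few abundant genes alone. The ratio ran along the whole chromosome: in 4 equal stretches of X, in order of position, the median log2 ratio was 0.77, 0.80, 0.94 and 0.88, over 48, 55, 50 and 60 genes. Protein-coding X genes (46 of 164 past the fold, median 0.78), long non-coding genes (9 of 14, median 1.04) and pseudogenes (18 of 35, median 1.00) were all on the same side of 0.

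The most abundant X-linked RNAs show the range of the ratios. Cypt1, a gene of the perinuclear theca family, had 885 CPM in WT and 1627 in KO, a log2 ratio of 0.88 (0.84 to 0.92). Gm5941 had 535 and 940 CPM (0.81), and 1700010D01Rik 414 and 824 CPM (0.99). Prdx4, an endoplasmic reticulum peroxidase, had 328 and 558 CPM (0.77). Others among the 10 with the most UMIs differed little: Tsga8, a nuclear protein gene of haploid cells, had 780 and 910 CPM (0.22), and Akap4, the main scaffold of the fibrous sheath of the tail, 733 and 818 CPM (0.16). Hypm had 385 and 391 CPM, with an interval that includes 0 (-0.04 to 0.09). The 10 were picked by UMI number after the ratios by chromosome had been seen.

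The largest X-linked ratios were those of 4930453H23Rik, a long non-coding RNA (15.9 CPM in WT, 89.6 in KO, log2 2.49), and Sms, spermine synthase (5.58 and 30.6 CPM, 2.46). Of the X genes tested, 4 had a ratio under 0 and 2 of these an interval below 0. These 2 were H2afb1, a short histone H2A variant of spermatids, with 224 CPM in WT and 170 in KO (-0.40, interval -0.49 to -0.31), and 3830403N18Rik with 42.2 and 35.2 CPM (-0.26). On Y, the gene with the most UMIs, Gm20736, had 120 CPM in WT and 219 in KO (0.86). Eif2s3y, a translation factor subunit active in every cell of males, had 116 and 147 CPM (0.34). Sly, a multicopy regulator of sex chromosome repression in spermatids, had 31.9 and 46.8 CPM (0.55), and Zfy2, a zinc finger transcription factor, 25.5 and 53.4 CPM (1.07). The fixed list of 6 measured sex chromosome genes of spermatids had a median of 0.76 with 1, Zfy2, past the fold. Gm21787 stood apart on Y with 21.2 and 12.0 CPM (-0.83). Many X- and Y-linked spermatid genes have near-identical copies, so how the counting assigned reads between copies is uncertain for them.

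**Figure D3:**
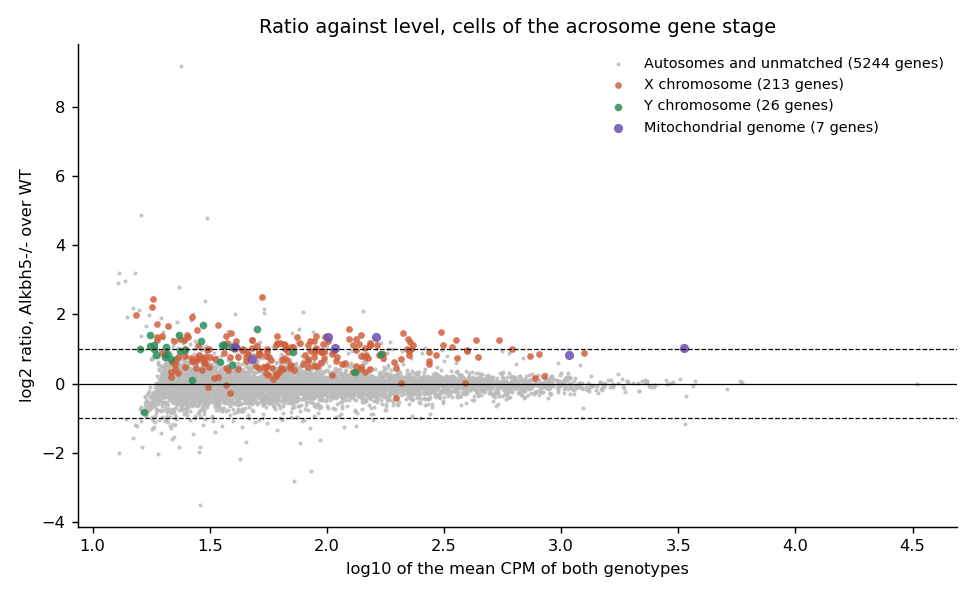
Log2 ratio of KO over WT against the log10 mean CPM for the 5490 genes tested in cells of the acrosome gene stage; colours mark X-linked, Y-linked and mitochondrially encoded genes and dashed lines a ratio of 2. Of the X-linked genes 209 of 213 lie above 0, at low and at high levels, while most other genes spread around 0.

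Per cell, the X-linked share had a median of 1.86% in WT (quartiles 1.61 to 2.09) and 3.08% in KO (2.46 to 3.84), or a median of 248 and 384 X-linked UMIs. Of the 543 KO cells, 429 (79.0%) lay above the 90th percentile of the WT cells, 97 between the 10th and the 90th, and 17 below the 10th. The KO cells were thus shifted as a population and also spread more widely: the quartile range was 25.8% of the median in WT and 44.4% in KO. The ratio of the KO to the WT median share per cell was between 0.951 and 1.03 on the 19 autosomes.

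The difference was as large within parts of the stage. Among the members nearest the early round spermatids, with the 1275 cells cut into 3 equal parts by position, the median X-linked share was 1.65% in WT and 2.73% in KO. In the middle part it was 1.81% and 3.10%. Among those nearest the Cd46 stage it was 2.10% and 3.75%. The share was higher toward the later stage in both genotypes, and KO was higher in each part.

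**Figure D4:**
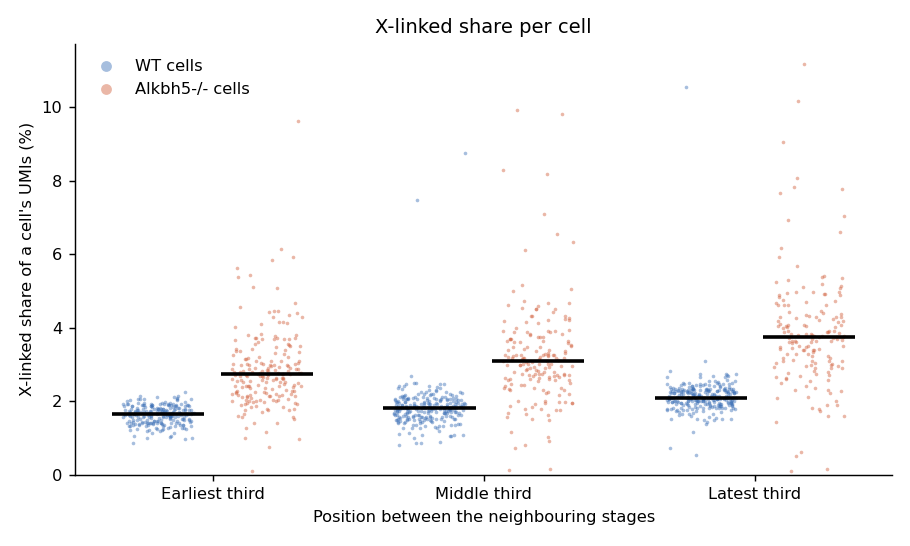
Share of each cell's UMIs from X-linked genes, in percent, for WT (732) and KO (543) members in 3 equal parts of the position score; each point is 1 cell and black lines are medians. The KO medians (2.73, 3.10 and 3.75%) lie above the WT medians (1.65, 1.81 and 2.10%) in each part, and the KO points are more widely spread.

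The ratio of the X-linked share, KO over WT, was above 1 in each of the 10 stages. In the pachytene stage it was 3.74 (3.67 to 3.81), at low shares of 0.205% in WT and 0.767% in KO, beside 1.94% and 3.44% in the acrosome gene stage. Of the autosomal genes tested in the pachytene stage, 6.65% were past the fold higher, beside 1.13% in the acrosome gene stage. The X-linked ratio was 1.77 (1.74 to 1.80) in the late spermatocyte stage and 1.48 (1.47 to 1.49) in the early round spermatids. It was 1.77 (1.76 to 1.78) in the acrosome gene stage, 1.94 (1.93 to 1.96) in the Cd46 stage and 2.00 (1.99 to 2.02) in the Cst13 stage, and between 1.77 and 1.91 in the 4 stages after it. The acrosome gene stage thus lay above the stage just before it and below the stage just after it, with intervals that do not meet, in a series that has no single direction. For Y the ratio was 1.20 in the early round spermatids, 1.65 in the acrosome gene stage and 1.91 in the Cd46 stage.

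The Cypt genes, which encode small basic proteins of the perinuclear theca, the protein layer between acrosome and nucleus, lie on X and on autosomes, and they were looked at after their values had been seen. The 4 X-linked members tested were higher in KO. Cypt2 (chrX:105499772-105500639) had 317 CPM in WT and 766 in KO, a log2 ratio of 1.27 (1.22 to 1.33). Cypt15 (chrX:39346267-39346963) had 62.1 and 187 CPM, 1.59 (1.46 to 1.71). Cypt1 and Cypt3 had ratios of 0.88 and 0.87. Both autosomal members were near equal: Cypt4 (chr9:24625196-24625824) had 3716 and 3575 CPM, -0.06 (-0.08 to -0.03), and Cypt12 (chr3:17948410-17948959) had 1539 and 1531 CPM, -0.01 (-0.04 to 0.02). The X-linked and autosomal ratios do not overlap.

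The promoters of these genes are shown because genes with close to the same start region differ by chromosome. They are 300-base RefSeq windows on GRCm38.p6, from 250 bases before the gene's start to 50 bases after it, 5′ to 3′ on the gene's strand. Capitals mark CATTGTTCTGACA, the longest run of letters that the windows of the 6 Cypt genes and of Zfy2 on Y all hold. The windows lie at chrX:105499522-105499821, plus strand, chr9:24624935-24625234, plus strand, chrX:39346016-39346315, plus strand, chr3:17948194-17948493, plus strand and chrY:2170360-2170659, minus strand.
Cypt2 promoter: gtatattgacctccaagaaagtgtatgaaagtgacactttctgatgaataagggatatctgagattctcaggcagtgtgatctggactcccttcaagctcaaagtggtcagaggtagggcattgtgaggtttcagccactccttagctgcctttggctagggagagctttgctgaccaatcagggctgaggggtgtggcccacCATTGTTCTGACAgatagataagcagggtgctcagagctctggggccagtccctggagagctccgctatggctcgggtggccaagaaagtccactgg
Cypt4 promoter: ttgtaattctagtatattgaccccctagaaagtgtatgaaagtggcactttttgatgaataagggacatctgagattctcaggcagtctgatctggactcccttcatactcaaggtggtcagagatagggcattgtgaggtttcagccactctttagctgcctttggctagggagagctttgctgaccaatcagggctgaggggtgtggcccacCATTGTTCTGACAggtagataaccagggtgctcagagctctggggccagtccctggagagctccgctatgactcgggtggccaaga
Cypt15 promoter: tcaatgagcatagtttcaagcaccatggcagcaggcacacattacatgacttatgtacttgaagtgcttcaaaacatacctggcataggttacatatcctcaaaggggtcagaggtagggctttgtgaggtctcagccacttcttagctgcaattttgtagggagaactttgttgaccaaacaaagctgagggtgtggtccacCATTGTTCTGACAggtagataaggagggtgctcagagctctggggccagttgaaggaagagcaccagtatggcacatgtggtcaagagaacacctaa
Cypt12 promoter: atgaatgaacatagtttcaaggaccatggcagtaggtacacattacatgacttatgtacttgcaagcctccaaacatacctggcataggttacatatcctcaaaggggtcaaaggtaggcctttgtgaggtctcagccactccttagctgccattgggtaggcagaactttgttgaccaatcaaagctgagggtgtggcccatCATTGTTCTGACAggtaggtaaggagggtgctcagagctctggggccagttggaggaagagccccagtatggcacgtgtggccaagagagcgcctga
Zfy2 promoter: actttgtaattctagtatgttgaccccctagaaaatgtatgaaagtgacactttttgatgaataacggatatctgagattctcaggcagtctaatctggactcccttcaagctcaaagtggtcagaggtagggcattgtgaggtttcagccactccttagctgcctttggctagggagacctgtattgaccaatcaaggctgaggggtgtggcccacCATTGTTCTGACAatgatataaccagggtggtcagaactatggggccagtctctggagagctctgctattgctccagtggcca

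On either strand, that run of 13 letters was found in the windows of 8 of 27025 genes (0.0296%): the 7 named here and Cypt14, which was not among the genes tested. Aligned to each other, the windows of X-linked Cypt2 and autosomal Cypt4 were identical at 275 of 289 bases (95.2%) with no gap, beside KO to WT log2 ratios of 1.27 and -0.06. X-linked Cypt15 and autosomal Cypt12 were identical at 271 of 294 bases (92.2%), beside ratios of 1.59 and -0.01. The window of Zfy2, with a ratio of 1.07, was identical to that of Cypt4 at 268 of 297 bases (90.2%). It was 93.8% identical to that of X-linked Cypt1 (ratio 0.88) and 91.9% to that of Cypt2. The windows of Cypt1 and Cypt2 were 95.3% identical. Genes whose windows are alike had different ratios in some pairs and like ratios in others in these libraries. The pairs were picked after their values were seen, and a part of the promoters in the ratios was not tested. Reads of such alike genes may be split between copies or dropped by the counting, in both libraries by the same rule.

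**Figure D5:**
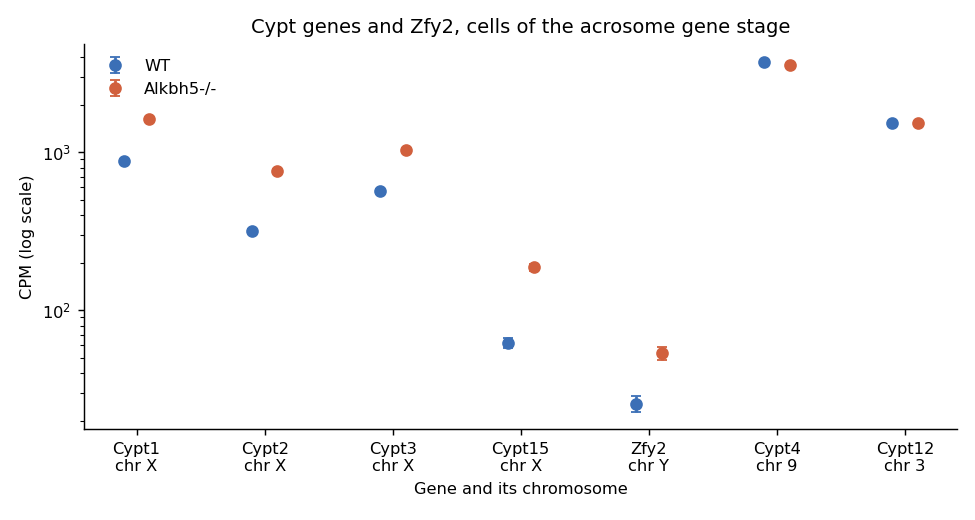
CPM, on a log scale, of the Cypt genes and Zfy2 in the WT and KO members, with the chromosome of each below its name; bars are exact 95% Poisson intervals. The 4 X-linked Cypt genes and Y-linked Zfy2 are higher in KO, and Cypt4 (3716 and 3575 CPM) and Cypt12 (1539 and 1531 CPM) on autosomes are at near equal levels.

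Of 12 measured genes of the perinuclear theca and head cytoskeleton, 11 were tested and 2 were past the fold, both higher and both on X, beside 2.81% of all genes tested, and the median was -0.12. Cylc1, an X-linked cylicin of the calyx behind the acrosome, had 222 CPM in WT and 465 in KO, a log2 ratio of 1.06 (0.99 to 1.14). Its autosomal relative Cylc2 had 590 and 600 CPM, 0.02 (-0.03 to 0.08). Actrt1, an X-linked actin-related protein gene, had 43.6 and 89.8 CPM, 1.04, which was 0.98 and under the fold with equal weight per cell, and its autosomal relative Actrt2, named after its value was seen, had 376 and 359 CPM, -0.07. Spata46, Capza3 and Actl7a, all autosomal, had ratios of -0.25, -0.05 and -0.24.

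The acrosome genes themselves differed little. All 32 genes of the acrosome matrix and membrane list were measured, 0 were past the fold in either direction, and their ratios had a median of -0.11 (24 below 0, 8 above; 19 intervals below 0 and 5 above), beside -0.02 over all genes tested. Spink2, an inhibitor of acrosomal proteases, had 2697 CPM in WT and 2934 in KO (0.12). Crisp2, which tethers germ cells to Sertoli cells, had 2252 and 2393 CPM (0.09). Dkkl1 had 1714 and 1617 CPM (-0.08) and Fam209 1362 and 1205 CPM (-0.18). Summed over the list, the level was 20488 CPM in WT and 19557 in KO, a log2 ratio of -0.07 (-0.08 to -0.06). Of the 30 list genes detected widely enough in both libraries, 14 had their highest level of the 10 stages here, not counting the 3 genes of the rule.

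Lists of the traffic, adhesion and flagellum genes that run beside the acrosome had no gene past the fold. The 13 genes of Golgi vesicle traffic had a median of 0.03, with 3 intervals above 0 and 1 below. Hook1, which the manchette of spermatids needs, had 368 CPM in WT and 319 in KO (-0.21). The 22 measured ADAM proteins and chaperones had a median of 0.00, with Clgn, a chaperone of sperm surface proteins, at 562 and 589 CPM (0.07), and Pmis2, needed for sperm to reach the egg, at 610 and 481 CPM (-0.34). The 32 flagellum and fibrous sheath genes had a median of -0.06, with Ropn1l at 3634 and 3826 CPM (0.07) and Tekt2, a tektin of the axoneme, at 882 and 854 CPM (-0.05). The 10 testis glycolysis isozymes had a median of -0.04, led in UMIs by Ldhc, the testis lactate dehydrogenase, with 5648 and 5940 CPM (0.07).

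Regulators of the haploid programme and of RNA storage were also near equal. The 14 spermatid transcription regulators had 0 genes past the fold and a median of -0.09. Crem, the activator of many post-meiotic genes, had 765 CPM in WT and 698 in KO (-0.13) and was highest in this stage in both libraries. Sox5 (621 and 572 CPM, -0.12) was highest here too. Tbpl1, a TATA-binding protein relative of spermatids, had 497 and 630 CPM (0.34). The 16 measured genes of the chromatoid body and mRNA storage, where spermatids keep RNAs for later translation, had a median of 0.10, with Pabpc1 at 2959 and 3044 CPM (0.04) and Mael at 922 and 994 CPM (0.11). The 13 synaptonemal complex and cohesin genes, left from meiosis, had a median of 0.10 and 0 past the fold.

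The m6A list had 15 measured genes, 0 past the fold and a median of -0.19, with few UMIs behind most of them; Alkbh5 is one of them, detected in too few cells to be tested. Fto, the other known eraser, had 61.8 CPM in WT and 46.6 in KO (-0.41, interval -0.59 to -0.23). Ythdc1, the nuclear reader, had 45.2 and 42.4 CPM (-0.09), with an interval that includes 0. Of 12 measured genes of apoptosis and stress, 4 were detected in enough cells to be tested, and 1 of these was past the fold lower, beside 1.09% of all genes tested. It was Mcl1, a survival factor of the Bcl2 family, with 30.7 CPM in WT and 12.6 in KO (-1.29, interval -1.62 to -0.97). Bcl2l11, which encodes the death factor Bim, had 42.7 and 22.2 CPM (-0.94), below the fold. The median of that list was 0.06.

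Genes of nuclear condensation, which is still to come at this stage, had a median of -0.18 over 12 measured members, with 1 past the fold. That was Prm1, a protamine that packs sperm DNA, with 4656 CPM in WT and 2092 in KO (-1.15, interval -1.18 to -1.13). Prm2 had 1629 and 823 CPM (-0.98). Hils1, a spermatid linker histone, was near equal (2528 and 2480 CPM, -0.03). Prm1 RNA is far more abundant in later stages, and without the barcodes called doublets its ratio was -0.55. In the left-out KO barcodes it reached 14344 CPM. The part of doublets in this result was not tested further, and that of RNA from outside the cells was not tested.

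Markers of somatic cells were higher in KO members, at low levels. The 9 Leydig markers summed to 5.41 CPM in WT and 57.0 in KO, the 12 Sertoli markers to 9.11 and 44.2, the 10 macrophage markers to 7.96 and 36.2 and the 7 stromal and peritubular markers to 14.1 and 36.2. Ptgds, a prostaglandin synthase of the testis that was used as a Leydig marker, was past the fold and was the only one of these markers detected in enough cells to be tested. Its sum was 13 UMIs in WT members and 252 in KO members (log2 ratio 4.87), beside 10479.5 CPM in the left-out KO barcodes. Among the markers not tested, Cst12 (log2 ratio 2.87), Fabp3 (2.65) and Clu (2.31) had intervals above 1. Cd74 had 0 and 129 UMIs, and the latter lay in 2.39% of the KO members. Not all were higher: Igfbp7 had 5.25 and 4.69 CPM (-0.16) and C1qb 3.12 and 2.71 CPM (-0.20), each with an interval that includes 0. Insl3, Cyp17a1, Cst9, Cldn11, C1qa and C1qb are among the 10 markers that left barcodes out, so the rule limits their counts in members and lowers the sums of their lists. The part of RNA from these cells in the other results was not tested. In WT, 3 Sertoli and 3 macrophage markers were at 0, and in KO 1 of each. The 9 spermatogonia markers summed to 60.2 and 70.0 CPM, with 0 past the fold. Of 80 X genes at least 5 times lower in the left-out KO barcodes, 34 were past the fold higher (42.5%) with a median of 0.95. Of 1138 autosomal genes under the same limit 14 were (1.23%), with a median of -0.12. The limit was set against the mean of the WT and KO levels in members. Genes higher in KO members thus passed it more readily, so these values do not show where the RNA came from.

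Mitochondrially encoded RNA was also higher, at 0.330% of the UMIs of WT members and 0.658% of those of KO members, and the ratio was 1.99 (1.97 to 2.02). The fixed list of mitochondrially encoded genes, 8 of them measured, had a median log2 ratio of 1.02. That median was -0.21 in the early round spermatids and 2.35 in the Cd46 stage. Of 7 such genes tested, 5 were past the fold higher, beside 2.81% of all genes. One of them, mt-Nd2 (1.05), lost its call under 4 alternatives. Its ratio was 0.91 with a score above 0 and 0.93 with z-scores within each library. It was 1.04 with a distance of at least 0.25 and 1.29 without doublets, both still above a log2 of 1. In the main values 25.2% of KO cells held a UMI of mt-Nd2, close to the 25% limit. The 16S rRNA gene mt-Rnr2 had a ratio of 1.01 in the early round spermatids and 1.24 in the Cd46 stage. In the acrosome gene stage mt-Rnr2 had 2198 CPM in WT and 4486 in KO (1.03), and mt-Co1, a subunit of cytochrome c oxidase, 91.3 and 233 CPM (1.35). These RNAs reached 17110 and 11847 CPM in the left-out KO barcodes; the part of RNA from outside the cells in this result was not tested. The ribosomal protein list, with 83 measured genes, had 0 past the fold and a median of 0.18 (58 intervals above 0 and 7 below), with Rplp0 at 1243 and 1448 CPM (0.22).

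Most of the largest ratios were not those of X- or Y-linked genes. AC160966.1, a non-coding transcript on chromosome 9, had 1 UMI in the WT members and 384 in the KO members, and a log2 ratio of 9.17 with an interval of 6.69 to 14.5. Aldh1l1, a folate enzyme, had 26 and 481 UMIs (4.80). Gm21190, 6430550D23Rik, Pes1 (a ribosome biogenesis factor), 4930401C15Rik and CT009556.2 had ratios between 2.79 and 3.21; the chromosome of CT009556.2 was not matched. With a distance of at least 0.25 to the next score, Gm21190 (3.14) and 4930401C15Rik (2.85) lost their calls, though these ratios are above a log2 of 1. In the main values 25.2% and 26.3% of KO cells held a UMI of them, close to the 25% limit. The ratios of the 7 genes from AC160966.1 to CT009556.2, and that of Ptgds, rest on WT sums of 72 UMIs or fewer.

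The lowest ratio was that of 1810065E05Rik, whose WT members held 645 UMIs and KO members 38 (52.9 and 4.69 CPM, log2 ratio -3.50, interval -4.01 to -3.02). It lies on chromosome 11 at 58421111-58426024, with a start 2.12 Mb from that of Alkbh5. The non-coding RNAs 1700063D05Rik (1547 and 146 UMIs, -2.82) and 4930590H14Rik (146 and 25.4 CPM, -2.52), both on chromosome 9, came next. Gm10638, Fxyd2 (a regulator of the sodium pump) and Kcnab3os, an antisense RNA on chromosome 11 with a start 8.79 Mb from that of Alkbh5 and 253 and 42 UMIs, came after these, with ratios of -2.17 and -2.04 for the first pair. Fbxl5, which controls iron handling, had 45.4 and 11.6 CPM (-1.97). Ptov1, Rbmxl2, a testis copy of an X-linked splicing regulator, and Art1 had ratios between -1.84 and -1.82. Whether the counting used strand is not given in the sources used here, so Kcnab3os and its partner cannot be told apart. All 10 had an interval below 0 in the early round spermatids and in the Cd46 stage as well.

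Many genes besides those of the rule were highest in the stage. Of 4824 genes detected widely enough in both libraries, 938 had their highest CPM of the 10 stages here in both. As the stages were cut from the same cells, this is a description. The 15 with the largest ratio to the next stage included Dscc1, a cohesion loading factor of replication (344 CPM in WT and 331 in KO, beside 112 and 117 in the early round spermatids and 141 and 95.8 in the Cd46 stage), Plin2, a lipid droplet coat protein (102 and 93.3 CPM), Ice1, a factor of small nuclear RNA transcription (236 and 192), and Spsb1 (165 and 147). Borcs5, of a complex that moves lysosomes, had 23.7 and 28.6 CPM and Ubqln4, a ubiquilin, 31.1 and 22.5. The others were 4930558K02Rik, 4930596D02Rik and the non-coding or unnamed AC160550.2, 4930480C01Rik, 1700029E06Rik, 4930432E11Rik, 4930453L07Rik, A930030B08Rik and 1700121L03Rik. The KO to WT ratios of the 15 ran from -0.75 for AC160550.2 to 0.45 for 4930432E11Rik, and 0 were past the fold. Of 181 X-linked genes detected widely enough, 65 were highest in the stage, and their median ratio was 0.77, beside 0.82 for the other 116. Of the 938 genes, 671 matched a RefSeq promoter window, and 19 of these windows (2.83%) held TGACGTCA, the full site that Crem and its relatives bind, on either strand, beside 2.03% of all 27025 windows and 4.28% of those of the genes tested.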

How the data were processed

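The authors deposited 1 matrix of UMI counts per library; per the labels and the study's methods these came from reads checked with FastQC 0.11.7 and fastp 1, aligned with STAR 2.5.3a, assigned to genes by featureCounts (version 1.6.2) and analysed in Seurat. The counts are raw whole numbers per gene and barcode. The methods name a human genome build, while the gene symbols in the tables are mouse symbols, so chromosomes and coordinates were matched here by symbol to GENCODE vM21 on GRCm38.

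Each barcode with fewer than 2 of 10 exclusion markers detected was kept. For each gene of the sets, ln(1 + UMIs per 10000) was turned into a z-score over all kept barcodes of both libraries, the 3 genes of a set were averaged, and a cell was given to the set with the highest average. UMIs were then summed over members, giving about 12189600 in WT and 8103900 in KO, of 80283200 and 82056800 in the libraries. CPM is the sum per 1000000 UMIs of the members. Intervals are exact 95% intervals (Poisson for a level, conditional binomial for a ratio, Clopper-Pearson for a share) and cover counting error only. List genes count as measured with at least 10 UMIs. Scrublet, as scanpy 1.11.5 runs it, marked doublets (rate 0.06, 30 components) and kept in the main values. Python 3.11.15, numpy 2.4.6, scipy 1.17.1, pandas 2.3.3 and matplotlib 3.10.9 were used, and the scripts were tested on simulated data.

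The members, the 20 gene lists and the rules were chosen with earlier results of these data known. The genes named are those of the rule, Alkbh5, the 4 list members with the most UMIs (a selection of them is printed) and any past the fold, the 10 highest and 10 lowest ratios past the fold, and the 15 genes with the largest ratio to the next stage. Chromosome genes, the Cypt family and the pairs of relatives were added after their values were seen. Alternatives changed the scoring, the cells, the weights, the scaling and the thresholds.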

Additional observations from a re-analysis of the deposited data

Results flagged for a closer look

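Of the genes past the fold, 4 had a ratio of the opposite sign in the early round spermatids, and for 2 of them the interval there was off 0. The other two were mt-Nd1 (1.36 and -0.04) and Cd59a (-1.07 and 0.86), whose intervals in the early round spermatids include 0. Of the first pair, the log2 ratio of mt-Cytb was 1.03 in the acrosome gene stage and -0.33 in the early round spermatids, and that of mt-Nd2 was 1.05 and -0.21. In the Cd46 stage the ratios of mt-Cytb and mt-Nd2 were 2.56 and 2.39. Both of these are mitochondrially encoded genes of the respiratory chain. The difference between the stages was not tested, since each stage has 1 library per genotype.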

How the results depend on the processing

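The share of the stage among barcodes, KO over WT, was 0.609 over all barcodes and 0.935 over kept barcodes. The counts of genes higher and lower in KO were 154 and 60; they were 314 and 150 with a UMI in at least 10% of cells, 1229 and 487 with no minimum beyond 10 UMIs, and 380 and 271 at a log2 ratio of at least 0.58. In the latest part of the position score, added after seeing the data, 101 genes were lower. The X-linked share ratio of 1.77 was 1.83 and 1.82 in the middle and latest parts, 1.82 with a distance of at least 0.25, 1.88 over genes at least 5 times lower in the left-out KO barcodes and 1.75 with equal weight per cell, and the X-linked genes past the fold numbered 73 to 86; these alternatives too were added after seeing the data. The limit of 5 times was set against the mean of the WT and KO levels in members, so genes higher in KO passed it more readily. No direction turned in any alternative run. Prm1, at -1.15, was at -0.55 without called doublets and -0.97 with equal weight per cell. Actrt1 was at 0.98 with equal weight per cell. With z-scores within each library mt-Cytb (0.90) and mt-Nd2 (0.93) were below the fold. Calls of mt-Nd2 were also lost under 3 other alternatives, and those of Gm21190 and 4930401C15Rik with a distance of at least 0.25. No paired analysis was possible because there is 1 library per genotype and no test. Depth limits genes with few UMIs, such as most of the m6A list.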
